A study of Mus musculus with 4 samples.

Results

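The genes described here encode the receptors, channel and enzymes of purinergic signalling in mammary epithelial cells. They were chosen by name, from a list of 10 genes headed by P2rx7, as the probe sets to which the platform annotation gives exactly 1 symbol, and 9 of the 10 were found among 22180 genes with 1 symbol. Each of the 9 had 1 probe set, so no choice between probe sets was needed. Adora2b, the low-affinity adenosine receptor gene, was not analysed here. P2rx7 was picked for its difference between the groups, so its values are given as a description with no test, and the remaining members were chosen for their pathway.

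Cells came from inguinal glands of 4 week-old congenic FVB/NJ mice, with 1 Affymetrix array for each of 4 samples. In 2 samples the mice carried MMTV-Cre, in which the promoter of mouse mammary tumour virus drives Cre recombinase, an enzyme that recombines loxP sites, and 2 samples were from wild-type littermates. No floxed allele, drug or other agent is named for either group. The labels call the samples biological replicates without saying whether an extract came from 1 mouse or from a pool, and they do not name the MMTV-Cre line. P-values therefore rest on the spread between these samples, which may in part be technical. The limma fit also draws each gene's spread toward that of all genes, so it can exceed the spread seen between close replicates. The epithelial fraction was made by mincing, collagenase digestion and centrifugation, and in such bulk samples fewer cells of a type cannot be told apart from less RNA per cell. Values are log2 expression from robust multi-array averaging (RMA), so a difference of 1 is a doubling. A level below 2.84, the median of the probe set means, is called dim here.

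Cells release ATP and other nucleotides when stretched, damaged or stimulated, partly through pannexin channels. Outside the cell ATP opens P2X receptors, which are cation channels, and ATP, ADP and uridine nucleotides act on P2Y receptors, which signal through G proteins. Surface enzymes then strip the phosphates in steps, ending in adenosine, which acts on its own receptors. In mammary tissue, ATP released by stretched myoepithelial and luminal cells evokes calcium signals that spread between neighbouring cells.

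P2rx7 lies on chromosome 5 of mouse assembly GRCm38.p6 at chr5:122643927-122692336, and its paralogue P2rx4 follows at chr5:122707518-122729739, with 15181 bases between the annotated genes. The 250 bases before the annotated transcript starts of these neighbouring genes are shown because they were the 2 members with higher values on both MMTV-Cre arrays. P2rx7 has 2 such starts in the RefSeq table and P2rx4 has 1, all on the plus strand. The second P2rx7 start lies within the gene, and that of P2rx4 lies inside its annotated span, so the last 26 bases of the P2rx4 window fall within the span. The sequences are RefSeq's, of the C57BL/6J reference and not of the FVB/NJ mice sampled, and they cover chr5:122643677-122643926, chr5:122650133-122650382 and chr5:122707294-122707543. Capitals mark the letters of an AP-1 element (TGAGTCA or its reverse complement TGACTCA) and of a GC box (GGGCGG or its reverse complement CCGCCC).
P2rx7 first start: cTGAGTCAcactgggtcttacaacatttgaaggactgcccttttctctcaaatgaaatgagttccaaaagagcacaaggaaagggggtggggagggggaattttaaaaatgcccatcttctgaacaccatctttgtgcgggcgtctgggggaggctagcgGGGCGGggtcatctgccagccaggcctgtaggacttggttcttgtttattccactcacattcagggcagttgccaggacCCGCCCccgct
P2rx7 second start: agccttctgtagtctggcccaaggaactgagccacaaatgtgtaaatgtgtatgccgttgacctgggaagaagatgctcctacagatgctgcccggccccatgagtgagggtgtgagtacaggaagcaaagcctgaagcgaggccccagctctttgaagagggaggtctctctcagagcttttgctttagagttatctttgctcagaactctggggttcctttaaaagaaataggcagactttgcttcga
P2rx4 start: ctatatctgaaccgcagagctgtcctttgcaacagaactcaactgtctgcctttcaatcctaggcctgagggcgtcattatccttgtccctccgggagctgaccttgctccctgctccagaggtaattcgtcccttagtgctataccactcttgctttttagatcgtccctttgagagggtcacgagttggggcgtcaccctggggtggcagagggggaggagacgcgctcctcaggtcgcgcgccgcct

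The window before the first P2rx7 start held 1 AP-1 element, 249 to 243 bases before the start. It also held 2 GC boxes, the first 90 to 85 bases before the start and the second 11 to 6 bases before it. Neither motif occurred in the other 2 windows, and the letters TATAAA or TTTATA occurred in none of the 3. The motifs searched did not overlap one another in these windows. Of 32851 RefSeq windows of this length, 4.46% held the AP-1 letters, 32.7% a GC box and 12.4% TATAAA or its reverse complement. RefSeq gave 14 windows for 8 of the members, and AP-1 letters were found in 2 of them, GC boxes in 5 and TATAAA or its reverse complement in 1. A match is only a match of letters and was set against no binding data.

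The ATP-gated channel gene P2rx7 was higher on both MMTV-Cre arrays than on both wild-type arrays, and among the members found it had the largest difference. It stood at log2 levels of 4.58 and 4.62 in MMTV-Cre, against 3.88 and 4.04 in wild-type. The 2 MMTV-Cre values lay close together and well above the higher wild-type value, and all 4 were above the dim limit. The means were 4.60 ± 0.03 in MMTV-Cre and 3.96 ± 0.11 in wild-type (SD, n = 2 each). The log2 difference was 0.64 with a standard error of 0.12 from the fit over all genes, or 1.56-fold. P2X7 is the P2X subtype that needs the highest ATP concentration, and in macrophages it is known for triggering release of interleukin-1. Its difference ranked 38 from the top of 22180 genes, and 23 of the 11668 that were not dim. These ranks restate the choice of the gene. The 1 probe set for P2rx7 cannot tell apart its 5 curated RefSeq transcripts.

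**Figure D1:**
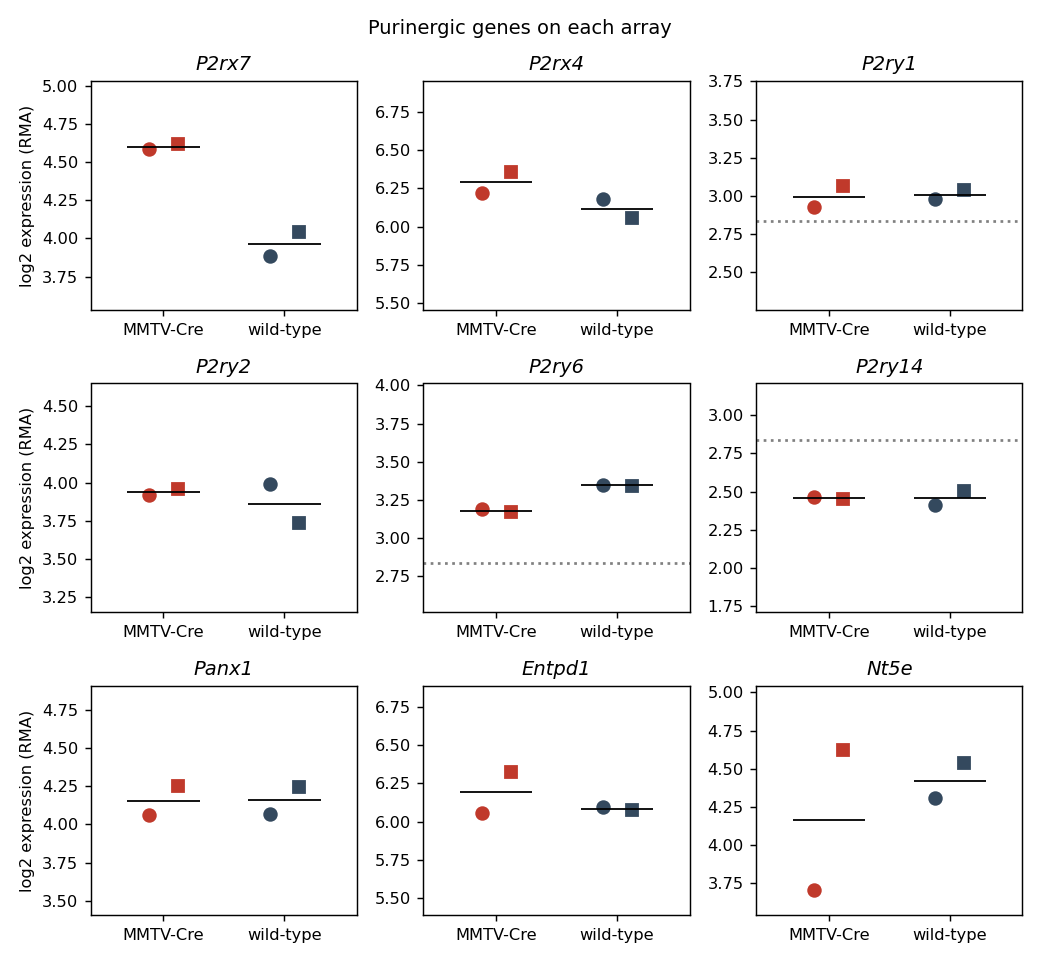
Log2 RMA expression (vertical axes, each spanning the same 1.5 log2 units) of the 9 members on every array, MMTV-Cre in red at left and wild-type in dark blue at right. Circles are replicate 1, squares are replicate 2, bars are group means and the dotted line is the dim limit of 2.84. P2rx7 lies at 4.58 and 4.62 in MMTV-Cre, against 3.88 and 4.04 in wild-type, while most other members overlap.

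P2rx4, which encodes the other P2X channel among the members, was also higher on both MMTV-Cre arrays, by a small amount. It stood at 6.22 and 6.36 in MMTV-Cre, against 6.18 and 6.06 in wild-type. The lowest MMTV-Cre value and the highest wild-type value were nearly the same. The log2 difference was 0.17 (SE 0.13, 95% interval −0.14 to 0.49, n = 2 each), and it did not pass the limma test (adjusted p = 0.963). The interval includes 0.

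The P2Y receptor genes showed no shared direction. P2ry6, the receptor gene for uridine diphosphate, stood at 3.19 and 3.17 in MMTV-Cre, against 3.35 and 3.34 in wild-type. Replicates of each group agreed closely and the groups did not overlap, with a log2 difference of −0.16 (95% interval −0.45 to 0.12, adjusted p = 0.963 by limma). P2ry2, a receptor gene for ATP and uridine triphosphate, stood at 3.92 and 3.96 in MMTV-Cre, against 3.99 and 3.73 in wild-type. Both MMTV-Cre values lay between the wild-type ones, and the log2 difference was 0.08 (−0.27 to 0.42). P2ry2 and P2ry6 are neighbours on chromosome 7, with 21069 bases between their annotated spans, and their differences had opposite signs. P2ry1, an ADP receptor gene, stood at 2.93 and 3.06 in MMTV-Cre, against 2.98 and 3.04 in wild-type. The groups overlapped, with a log2 difference of −0.01 (−0.32 to 0.29). All 4 P2ry1 values were close to the dim limit.

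P2ry14, whose product binds UDP-sugars, was the only dim member, so a lack of difference there says little about the transcript. Its levels were 2.47 and 2.45 in MMTV-Cre, against 2.41 and 2.51 in wild-type. The group means coincided at 2.46, so the log2 difference was 0.00 (95% interval −0.29 to 0.29). Such a coincidence, to within 1e-07 of the summed levels, occurred in 66 of the 41345 probe sets.

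The release channel and the nucleotide-degrading enzymes did not separate the groups. Panx1, which encodes the pannexin channel that lets ATP out of cells, stood at 4.06 and 4.25 in MMTV-Cre, against 4.07 and 4.25 in wild-type. In both groups replicate 1 was the lower, and the log2 difference was −0.00 (95% interval −0.35 to 0.34). Entpd1 encodes CD39, which degrades ATP and ADP to AMP, and stood at 6.06 and 6.33 in MMTV-Cre, against 6.10 and 6.07 in wild-type. Only MMTV-Cre replicate 2 was high, and without it the log2 difference of 0.11 (−0.24 to 0.46) was −0.03. Nt5e encodes CD73, which makes adenosine from AMP, and stood at 3.71 and 4.62 in MMTV-Cre, against 4.31 and 4.54 in wild-type. MMTV-Cre replicate 1 was the lowest of the 4 and MMTV-Cre replicate 2 the highest, so the group with the transgene spanned the other. The log2 difference was −0.26, with the widest interval among the members (−1.01 to 0.49), and it turned to 0.20 without MMTV-Cre replicate 1.

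By limma, 0 of the 8 members other than P2rx7 passed an adjusted p of 0.05 (smallest 0.963), and 0 had an unadjusted p under 0.05. Over all 22180 genes 0% passed, with a smallest adjusted p of 0.963, and 4.56% had an unadjusted p under 0.05. Groups were separate, with every MMTV-Cre value above every wild-type value or every one below, in P2rx7, P2rx4 and P2ry6, and in 33% of all genes. Without P2rx7 that is 2 of 8 members, or 25%, which is not above the background. Higher separate values occurred in 16.6% of all genes and lower ones in 16.3%. The 8 members had a median log2 difference of −0.00, as had all genes (−0.00). Their differences lay between the 5th and 95th percentiles of all genes, −0.32 and 0.30. The smallest two-sided p that an exact permutation test can reach with 2 arrays against 2 is 0.333. At the median gene a 95% interval reached 0.35 log2 units to either side, so differences of the size seen for P2rx4 or P2ry6 were not detectable at this precision.

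**Figure D2:**
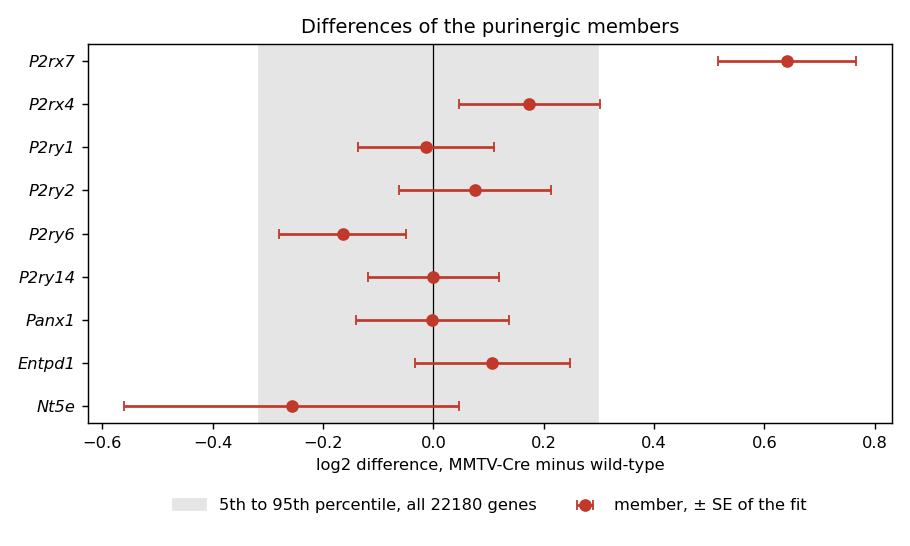
Log2 difference, MMTV-Cre minus wild-type (horizontal axis), of each member with bars of 1 standard error from the fit over all genes (n = 2 each). The grey band runs from the 5th to the 95th percentile of all 22180 genes, −0.32 to 0.30, and only P2rx7, which was picked for its difference, lies outside it at 0.64.

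Other genes of the pathway were read from lists of receptors, release channels, enzymes, transporters and inflammasome genes, of which 44 of 49 were measured and 24 were not dim. By limma 0 of the 44 passed in either direction, 3 had an unadjusted p under 0.05, and 14 (31.8%) had separate groups, 5 higher and 9 lower, beside 33% of all genes. Their median log2 difference was −0.01. Among the 24 that were not dim, 2 were separate and higher and 4 separate and lower. Of the 11668 genes that were not dim, 33.1% were separate, 16.7% higher and 16.5% lower. The other P2X genes P2rx1, P2rx2, P2rx3, P2rx5 and P2rx6 were dim except P2rx1, with 0 separate and higher and 2 separate and lower, both dim. P2rx1 stood at 2.76 and 2.84 in MMTV-Cre, against 3.25 and 2.82 in wild-type.

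The concentrative nucleoside transporter gene Slc28a2, which brings purine nucleosides into cells, had the largest upward difference of the listed genes. It stood at 3.44 and 3.67 in MMTV-Cre, against 2.94 and 2.74 in wild-type, with 1 of the wild-type values dim. The groups were well apart, at a log2 difference of 0.71 (95% interval 0.35 to 1.07), and it did not pass (limma adjusted p = 0.963). Of the 7 nucleoside transporter genes measured it was the only one with separate groups at the probe set used. A second, dim probe set of Slc29a3 was separate and higher, by 0.44, while its brighter one overlapped (0.14). The second probe set of Slc29a1, also dim, overlapped (−0.09). Adk encodes adenosine kinase, which returns adenosine to AMP inside cells, and stood at 4.92 and 4.76 in MMTV-Cre, against 5.44 and 4.97 in wild-type. Wild-type replicate 1 was the highest and the other 3 arrays lay closer together, with a log2 difference of −0.36 (−0.83 to 0.10). Panx2, a pannexin gene, differed by −0.14 (−0.43 to 0.15). Alpl, the gene of tissue-nonspecific alkaline phosphatase, differed by −0.15 (−0.50 to 0.19) at its brighter probe set and by 0.28 at its second, so its direction depends on the probe set.

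Some of the 9 inflammasome and interleukin-1 genes act downstream of P2X7 in macrophages. Of the 9, 1 was separate and higher and 2 were separate and lower, a share like the 33% of all genes, and 0 passed. Casp1, the protease gene of the canonical inflammasome, stood at 4.29 and 4.29 in MMTV-Cre, against 4.63 and 4.61 in wild-type. Replicates agreed closely, with a log2 difference of −0.33 (95% interval −0.62 to −0.05, limma adjusted p = 0.963). Casp4, the protease gene of the non-canonical pathway, differed by 0.19 (−0.14 to 0.52). Nlrp3, the sensor gene, was dim on all 4 arrays, at 1.84 and 2.69 in MMTV-Cre, against 2.36 and 2.10 in wild-type. The interleukin gene Il1b stood at 4.41 and 5.57 in MMTV-Cre, against 5.62 and 5.18 in wild-type, so MMTV-Cre replicate 1 was low alone, as for Nt5e.

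**Figure D3:**
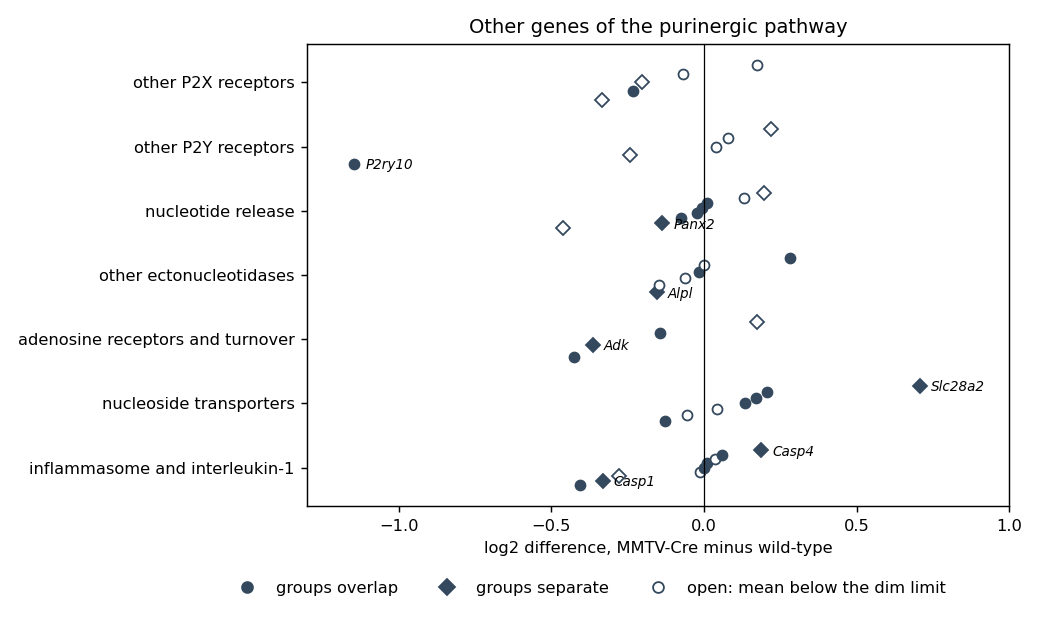
Log2 difference, MMTV-Cre minus wild-type (horizontal axis), of the 44 measured pathway genes by list (rows). Diamonds have separate groups, circles overlap and open symbols are dim genes. The differences lie on both sides of 0, with Slc28a2 at 0.71 and P2ry10 at −1.14 the farthest out.

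Cells were checked against marker genes of the labelled type and of others. All 8 luminal markers were above the dim limit, with means over the list between 7.51 and 7.57 on the 4 arrays, and 5 of 6 basal and myoepithelial markers were, with Oxtr dim. Fibroblast and endothelial markers were all above the limit too, so the fraction held other cells. Lymphocyte transcripts were highest in wild-type replicate 1, although some, such as Cd5 at 3.09 and 3.07 in MMTV-Cre, against 4.44 and 3.53 in wild-type, were above the dim limit on every array. All 7 measured T and NK markers and 4 of 5 B cell markers were highest there. Log2 levels of the T and NK list summed to 20.5 and 21.4 in MMTV-Cre, against 39.0 and 21.4 in wild-type. Its mean level per marker was 2.92 and 3.05 in MMTV-Cre, against 5.57 and 3.06 in wild-type. All sums given for marker lists are of log2 levels, so their ratio is not a fold difference. For B cells the sums were 13.3 and 13.4 in MMTV-Cre, against 19.5 and 12.7 in wild-type, with Cd79b, Cd79a and Ighm above the dim limit on average.

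P2rx7 is also expressed by lymphocytes and macrophages. Without wild-type replicate 1 its log2 difference was 0.56, and with all 4 arrays it was 0.64. P2ry10, a lymphocyte receptor gene chosen after its values were seen, followed those transcripts, at 2.58 and 1.96 in MMTV-Cre, against 4.63 and 2.20 in wild-type. The 8 macrophage and dendritic cell markers summed to 31.2 and 35.6 in MMTV-Cre, against 33.7 and 33.6 in wild-type. The MMTV-Cre sums lay on both sides of the wild-type ones, and 0 of these 8 markers had separate groups. MMTV-Cre replicate 1, where Nt5e was low, also had the lowest value for 6 of the 8 macrophage, 5 of the 6 adipocyte and 5 of the 6 mast cell markers. MMTV-Cre replicate 2, where Nt5e and Entpd1 were highest, had the highest value for all 6 fibroblast markers, whose sums were 43.1 and 46.1 in MMTV-Cre, against 43.3 and 43.3 in wild-type. The part of these cells in the Nt5e and Entpd1 values was not tested.

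Some single markers had separate groups, as P2rx7 did. Over all genes 16.6% were separate and higher, and 16.3% separate and lower. Of the 6 fibroblast markers, 4 were separate and higher in MMTV-Cre (Col1a1, Col1a2, Col3a1 and Dpt), with a median log2 difference of 0.23 over the list. Dcn (0.11) and Pdgfra (−0.12) overlapped, and the sum of the list was high only on MMTV-Cre replicate 2. Of the 6 basal and myoepithelial markers, 2 were separate and higher, Acta2 by 0.40 and Cnn1 by 0.31, beside 33% of all genes separate in either direction. Myh11 (0.19), Krt14 (−0.33), Trp63 (−0.24) and Oxtr (−0.03) overlapped. The sums were 34.96 and 35.78 in MMTV-Cre, against 35.04 and 35.08 in wild-type, so only MMTV-Cre replicate 2 was high. Of the 6 mast cell markers, 4 were separate and lower, Mcpt4 by −0.87, Cpa3 by −0.73, Cma1 by −0.46 and Tpsb2 by −0.33. Fcer1a was separate and higher, by 0.11, and Kit (0.13) overlapped. The mast cell sums were 17.5 and 19.0 in MMTV-Cre, against 20.2 and 20.5 in wild-type, with Fcer1a and Tpsb2 dim on average. The nerve and Schwann list, with 3 measured markers, 1 of them dim, had means of 2.67 and 2.96 in MMTV-Cre, against 2.47 and 2.60 in wild-type. Of the 6 adipocyte markers, Adipoq (−0.16) and Plin1 (−0.34) were separate and lower. Of the 8 luminal markers, Krt18 (0.18) was separate and higher, and Krt8 (−0.06) and Cdh1 (−0.13) separate and lower. By limma 0 of these markers passed. The part of these cell types, of lymphocytes or of macrophages in the P2rx7 difference was not tested.

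**Figure D4:**
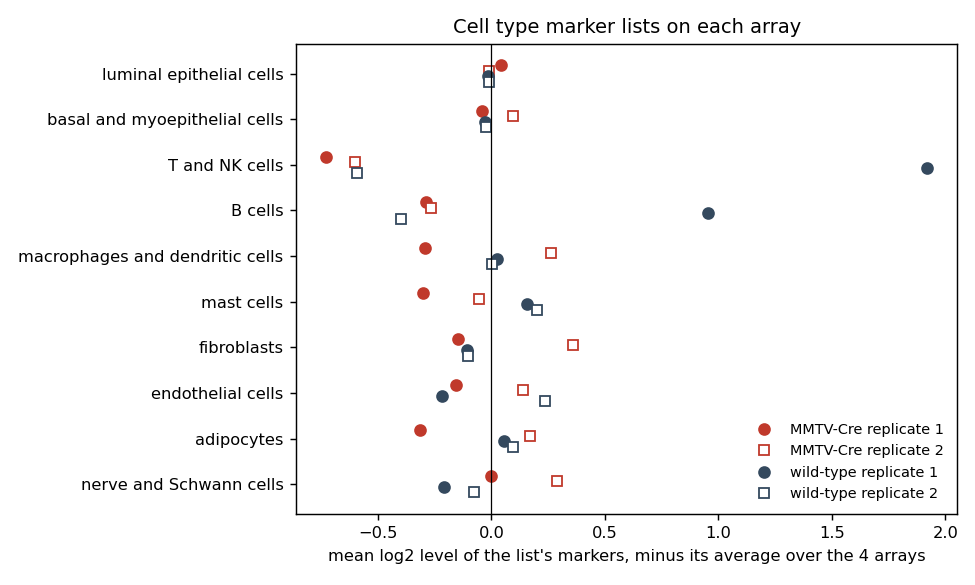
Mean log2 level of each marker list on each array, minus the list's average over the 4 arrays (horizontal axis), by cell type (rows), with red for MMTV-Cre, dark blue for wild-type, circles for replicate 1 and open squares for replicate 2. Wild-type replicate 1 stands apart for T and NK cells and for B cells, and the luminal list's values nearly coincide.

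The measured genes around P2rx7 had smaller differences, in both directions. RefSeq gave 16 genes within 200 kb, P2rx7 included, and only 8 of them were measured. The log2 differences of the 7 measured genes other than P2rx7 ran from −0.46 to 0.24. Beside 33% of all genes with separate groups, 2 of these 7 were separate and higher, P2rx4 and the ciliary transport gene Ift81, and 2 were separate and lower, Camkk2 and Anapc7. Ift81, the nearest measured gene before P2rx7, stood at 3.88 and 3.92 in MMTV-Cre, against 3.51 and 3.80 in wild-type, a difference of 0.24 (SE 0.14). Camkk2, which encodes a calcium-dependent kinase and whose annotated span overlaps that of P2rx4, stood at 3.45 and 4.10 in MMTV-Cre, against 4.22 and 4.24 in wild-type. Its difference of −0.46 (SE 0.22) rested mainly on MMTV-Cre replicate 1, and probe positions within the overlap were not used here.

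**Figure D5:**
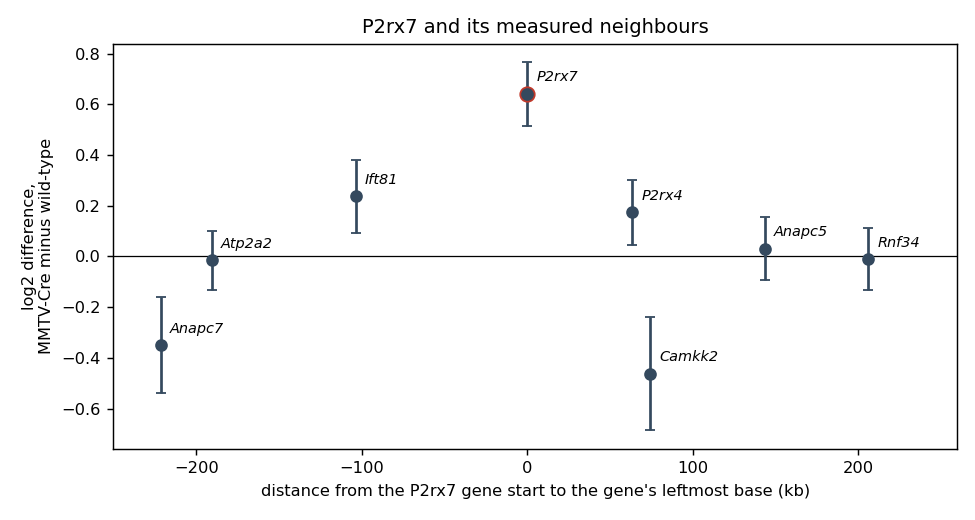
Log2 difference, MMTV-Cre minus wild-type, with bars of 1 standard error (vertical axis, n = 2 each) of the 8 measured genes within 200 kb, against the distance of their leftmost base from the P2rx7 start in kb (horizontal axis). P2rx7, in red, lies at 0.64, and the 7 other genes between −0.46 and 0.24.

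The 10789 genes compared with P2rx7 were not dim, and predicted, unnamed, miRNA, olfactory and vomeronasal genes were left out. Those whose pattern over the 4 arrays was most like that of P2rx7 were found by Euclidean distance between centred log2 values. They were Aurka, the gene of a mitotic kinase, at a distance of 0.026, Timp4, the gene of a metalloproteinase inhibitor, at 0.096, Prrt2 at 0.11, Apbb3 at 0.13 and Gas6, which encodes a ligand of TAM receptor kinases, at 0.15. Aurka stood at 3.92 and 3.99 in MMTV-Cre, against 3.23 and 3.40 in wild-type. With 4 arrays many genes can share a pattern. Of the other members P2rx4 was nearest, at a distance of 0.51, as the 2764th nearest of all genes, and Nt5e was farthest, at 1.09.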

How the data were processed

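Transcripts were measured on 4 arrays, 2 MMTV-Cre and 2 wild-type, from 50 ng of total RNA each. The authors deposited probe set levels in log2 units, made with oligo and RMA per the submitters' processing notes, with versions not given in the sources used here. The log2 scale was read from the values (array medians 2.83 to 2.86). RMA equalises arrays, so a shift of most transcripts cannot be seen. Of 41345 probe sets, 23521 had 1 symbol in the platform annotation, 1814 several and 16010 none named here. A gene with several probe sets was represented by the brightest. Members matched RefSeq (GRCm38.p6) by Entrez identifier (9 of 9).

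The comparison used the R package limma, version 3.58.1, under R 4.3.3 (lmFit, eBayes without trend, two-sided, Benjamini-Hochberg over all 22180 genes), with no filter on dim genes, since dim members were to be kept. The steps were run on simulated data with planted differences larger than that of any member. That run says nothing on power at the sizes seen for the members. Genes named are the members, the listed genes that were not dim and had separate groups, and the 5 nearest to P2rx7 (predicted, miRNA, olfactory and vomeronasal genes left out). Others, among them P2rx1, Nlrp3, Il1b, P2ry10 and the neighbours of P2rx7, were chosen after their values were seen. Members and lists were chosen with earlier results of these data known.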

Additional observations from a re-analysis of the deposited data

How the results depend on the processing

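In the 8 alternatives that kept all 4 arrays (a filter on dim genes, which drops P2ry14, averaged or separately tested probe sets, median centring, quantile normalization, robust variance, a variance trend and the replicate block), 0 genes passed and 3 members had separate groups. Of these, only quantile normalization and median centring alter a member's levels, since each member had 1 probe set. The others could change a test but not a member's difference or separation. P2rx7 ranged from 0.64 to 0.66 over the 8 alternatives. Only P2ry1 and Panx1 changed sign there, P2ry1 to 0.0040 by quantile normalization and 0.010 by median centring, and Panx1 to 0.026 and 0.022. Both stayed near 0, and the centring alternatives shift the median of all genes by 0.01 and 0.02. The correlation of same-numbered deviations was −0.02 over all genes. With only 4 arrays this value cannot tell whether same-numbered samples were paired, so no conclusion on pairing is drawn. The replicate block gave 0 genes. In this balanced design it could not change a difference, so the 3 separate members and 0.64 for P2rx7 were fixed in advance.

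Leaving out 1 array leaves a group with a lone array, whose variance is taken from the remaining pair. From 0 to 7 genes then passed, the 7 without wild-type replicate 2, and 5 to 7 members had separate groups, since 3 arrays overlap less often than 4. P2rx7 ranged from 0.56 to 0.72, P2rx4 from 0.11 to 0.24 and P2ry6 from −0.17 to −0.16. These members had separate groups with all 4 arrays, so leaving out 1 array could not turn their sign. Differences that turned sign ranged from −0.029 to 0.24 for Entpd1, −0.71 to 0.20 for Nt5e, −0.081 to 0.055 for P2ry1, −0.051 to 0.20 for P2ry2 and −0.10 to 0.10 for Panx1. No member other than P2rx7, which was not tested, passed in any of the 12 alternatives.

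Precision is limited by having 2 arrays a group, and for members near or below the dim limit the size of a difference is uncertain.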
